A study of Mus musculus with 16 samples.

Results

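TRAV13 segments numbered 1 and 2 are a small group of T cell receptor α (TCRα) variable segments of the mouse. The group has 6 members, TRAV13-1, TRAV13-2, TRAV13D-1, TRAV13D-2, TRAV13N-1 and TRAV13N-2. Members were chosen by name, from the best V hit of each sequence. They held 4733 of 78671 clones and 46865 of 815759 reads in 8 libraries, in which 117 V segments were seen. A clone is here a CDR3 nucleotide sequence listed for a library, and its reads are the deposited read count. The libraries came from CD8 T cells of C57BL/6 mice that were Themis+/+ or Themis-/-. All mice of both genotypes carried the Foxp3-GFP reporter, and the Themis-/- mice had the targeted tm1Gasc allele of Themis in the germline, so that no cell type was spared. Cells were single positive CD8 thymocytes or lymph node (LN) CD8 T cells, not selected for a V segment, with 2 libraries in each of the 4 groups of genotype and tissue. No age of the mice was stated.

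A TCRα chain is made in the thymus by joining a V segment to a J segment. The CDR3 is the loop that spans this junction, and it holds the end of the V, the start of the J and bases trimmed or added between them. In C57BL/6 mice a stretch of the V region is repeated, and D and N in a name mark the copies that lie farther from the J segments. J segments are numbered so that high numbers lie next to the V region and low numbers next to the constant region. A cell can rearrange the same allele again, which joins a V farther upstream to a J farther downstream. Themis is a T cell protein that acts in the selection of thymocytes, and the question of the study's repertoires was how its absence changes the TCRα chains of CD8 cells.

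All members lie on the forward strand of chromosome 14 and are annotated as TR_V_gene. By name match to the GRCm38 annotation their order towards the J segments was TRAV13D-1 (chr14:52851290-52851866), TRAV13D-2 (chr14:52942764-52943289), TRAV13N-1 (chr14:53162399-53162910), TRAV13N-2 (chr14:53253792-53254317), TRAV13-1 (chr14:53545014-53545525) and TRAV13-2 (chr14:53634829-53635399). TRAV13D-1 lies 1303139 bases from TRAJ61 and TRAV13-2 lies 519606 bases from it. TRAV13-1 and TRAV13-2, which lie nearest to the J segments, are called the J-proximal copies below. The germline ends of the members, which begin the CDR3, are shown because they set its first residues. Capitals mark the positions at which members differ.
TRAV13-1: tgtgctTtGgaAc
TRAV13D-1 and TRAV13N-1: tgtgctAtGgaAc
TRAV13-2, TRAV13D-2 and TRAV13N-2: tgtgctAtAgaTc
Each end has 13 bases and codes for Cys-Ala, then a residue that differs between members, then an acidic residue, which is residue 4 of the CDR3. This is glutamate in the segments numbered 1 and aspartate in those numbered 2.

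The D and N copies could not be told apart in all clones. TRAV13D-2 and TRAV13N-2 are identical over the 331 coding bases of the annotation, TRAV13D-1 and TRAV13N-1 differ at 1 of them, and all other pairs of members differ at 11 to 32. All 670 clones labelled TRAV13D-2 had TRAV13N-2 as an equally scored hit, while the 509 clones labelled TRAV13N-2 had no tied hit. The label moved with clone size. Of the clones of this pair, those labelled TRAV13D-2 made up 91.9% at 1 read, 54.4% at 5 to 9 reads and 10.3% at 20 or more reads. The median was 3 reads per clone for TRAV13D-2 and 11 for TRAV13N-2. For TRAV13D-1 and TRAV13N-1 the share labelled D ran from 42.6% at 1 read to 65.7% at 20 or more. Values that set TRAV13D-2 against TRAV13N-2 therefore compare labels of 1 sequence, and the read shares, fold changes, J numbers and residues at place 4 are given below also for the pair together.

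**Figure D1:**
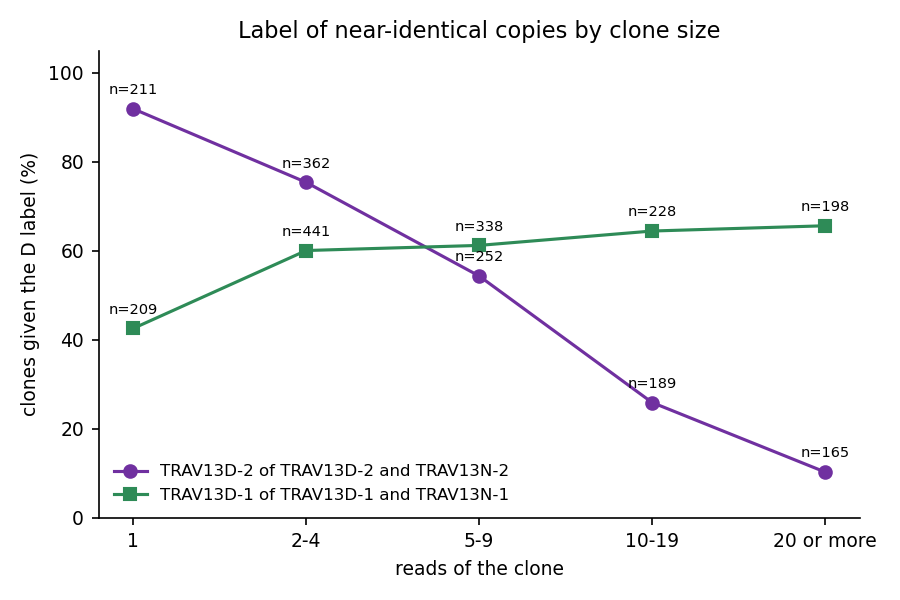
Share of clones given the D label (y axis, %) against the reads of the clone (x axis), for the pair TRAV13D-2 and TRAV13N-2 and the pair TRAV13D-1 and TRAV13N-1, with n the clones of the pair over the 8 libraries. The TRAV13D-2 share falls from 91.9% to 10.3% with clone size, while the TRAV13D-1 share lies between 42.6% and 65.7%.

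The 8 libraries held 57455 to 146191 reads and 4357 to 16670 clones, and 14.8% to 21.2% of a library's clones had 1 read. Members had 3938 to 8374 reads and 289 to 920 clones per library. PCR reads are not independent molecules, so counting intervals cover counting error only. The widest exact 95% interval of the members' summed share in a library spanned 0.415 percentage points. Chains that mark invariant NKT and MAIT cells were rare. The invariant NKT chain (TRAV11 or TRAV11D with TRAJ18) took at most 0.419% of reads, with its highest values in the Themis-/- thymus libraries (0.354% and 0.419%). The MAIT chain (TRAV1 with TRAJ33) took at most 0.0424%. TRDV segments took 0.193% to 1.86%, here within TCRα transcripts, so that they do not mark another cell type. Their part in the results was not tested. Markers of CD8 T cells other than TCRα, and Themis itself, were not measured. Samples of a group are separate libraries by their labels. The sources differ on whether LNs of several mice were pooled, so p-values measure the spread between libraries.

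Many member clones differed from another clone of their library near the 3′ end of the CDR3 alone. Counted from that end, bases 4, 5, 6, 7 and 9 were unlike the germline J in 7.39% to 20.1% of member clones, against 0.0423% to 0.930% at the other 10 of the last 15 bases. In member clones of 20 or more reads the same 5 bases were unlike the germline in 2.74% to 10.1%. Other TRAV clones had 8.46% to 20.03% there. Of member clones, 51.9% had such a mismatch. T-to-G changes made up 77.6% of the mismatches and G-to-T changes 15.1%. When clones of a library that shared all CDR3 bases but the last 9 were counted as 1, the 4733 member clones became 2621, and each library's clones fell 1.69 to 2.11 times. The cause was not tested. Results that count clones are given with this merging (CDR3 ends merged) wherever it changed a call.

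**Figure D2:**
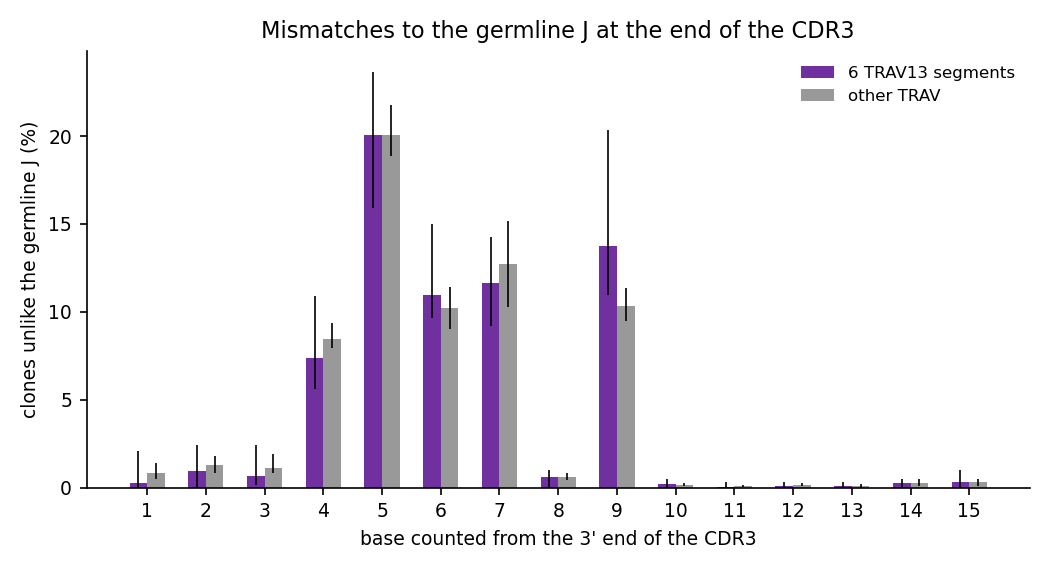
Share of clones (y axis, %) whose base differed from the germline J, by position from the 3′ end of the CDR3 (x axis), for the 6 TRAV13 segments and for other TRAV clones. Bars give all clones of the 8 libraries and thin lines the lowest and highest library. Bases 4, 5, 6, 7 and 9 stand at 7.39% to 20.1% in members, and the other 10 below 1%.

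Members took between 5.11% and 6.85% of the reads of a library. TRAV13-1 was the most used member in every library, and no member passed the test between genotypes or tissues. The summed share was 5.32% and 6.24% in Themis+/+ thymocytes, 5.73% and 5.11% in Themis-/- thymocytes, 5.75% and 6.85% in Themis+/+ LN cells, and 6.50% and 5.30% in Themis-/- LN cells. Ordered by their means, the groups were Themis-/- thymus (5.42%), Themis+/+ thymus (5.78%), Themis-/- LN (5.90%) and Themis+/+ LN (6.30%), and the values of neighbouring groups overlapped. The Themis-/- libraries were 0.382 percentage points lower than the Themis+/+ libraries (5.66% ± 0.618 against 6.04% ± 0.657, SD, n = 4 each, exact permutation test within tissue, two-sided p = 0.444). The sign was not stable, with 0.135 points higher by clones with CDR3 ends merged and 0.0391 higher as a log2 centred ratio. LN libraries were 0.501 points above thymus libraries (6.10% ± 0.706 against 5.60% ± 0.496, SD, n = 4 each, exact permutation p = 0.278). This permutation test cannot give a p below 0.0556. A share of reads cannot tell fewer cells that use a segment from less TCRα RNA per cell.

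TRAV13-1, the copy nearest the J segments of those numbered 1, had 2.10% ± 0.495 of reads (SD, n = 8). Its shares were 1.64% and 2.40% in Themis+/+ thymus, 1.97% and 1.32% in Themis-/- thymus, 2.37% and 2.93% in Themis+/+ LN, and 2.17% and 2.01% in Themis-/- LN. The highest value was from Themis+/+ LN and the lowest from Themis-/- thymus. In LN the genotypes did not overlap, but 2 libraries against 2 cannot give an exact permutation p below 0.333. How many other segments were likewise apart in LN was not counted. TRAV13D-1 had 1.15% ± 0.248, with 1.16% and 1.08%, 1.10% and 0.842%, 1.18% and 0.860%, and 1.59% and 1.36% in the same order of groups. Its highest values were both from Themis-/- LN. TRAV13N-1 had 0.665% ± 0.176 and ranged from 0.423% to 0.924%, with both of these extremes in LN.

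TRAV13N-2 had 1.12% ± 0.245 of reads and TRAV13D-2 had 0.340% ± 0.141. TRAV13D-2 was at 0.573% and 0.295% in Themis+/+ thymus, 0.373% and 0.531% in Themis-/- thymus, 0.191% and 0.265% in Themis+/+ LN, and 0.231% and 0.262% in Themis-/- LN. All 4 thymus values thus lay above the 4 LN values, and how many other segments were likewise apart was not counted. The pair together had 1.46% ± 0.267 (SD, n = 8), with 0.994% to 1.81% per library, and its thymus and LN values overlapped. TRAV13-2 had 0.482% ± 0.183, from 0.246% to 0.826%, and was lowest in a Themis-/- LN library.

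**Figure D3:**
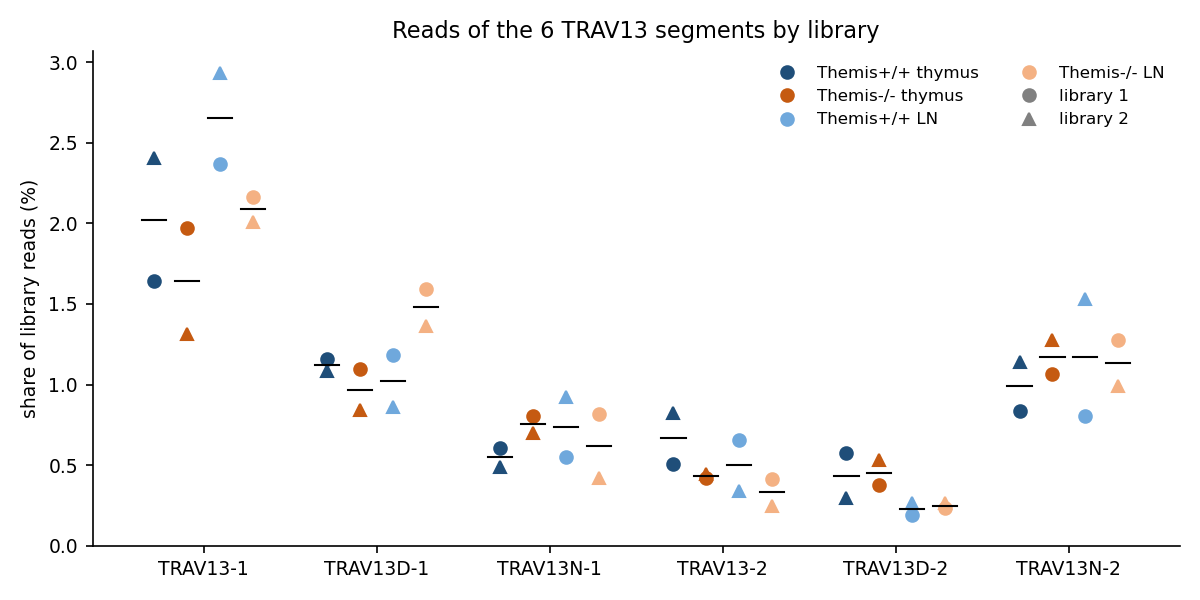
Share of the library's reads (y axis, %) for each of the 6 TRAV13 segments (x axis) in the 8 libraries, coloured by group, with circles for library 1, triangles for library 2 and a line at the mean of 2. TRAV13-1 lies at 1.32% to 2.93% and TRAV13D-2 at 0.191% to 0.573%.

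To test use of the members by genotype and tissue, reads per V segment were compared across all 114 segments that passed a filter of 10 reads in 2 libraries, with edgeR's quasi-likelihood test. None of the 6 members passed an adjusted p of 0.05 in any of the 5 comparisons, and 0 had an unadjusted p under 0.05. DESeq2 also called 0. Of all segments the test called 0% in thymus and 1.75% in LN between genotypes, 0% between tissues in Themis+/+, 2.63% between tissues in Themis-/-, and 0.877% for the difference of the genotype effects. In thymus the log2 fold change of Themis-/- over Themis+/+ (± SE, taken as the fold change divided by the root of F) was -0.19 ± 0.36 for TRAV13-1, -0.54 ± 0.58 for TRAV13-2, -0.11 ± 0.42 for TRAV13D-1, 0.14 ± 0.65 for TRAV13D-2, 0.56 ± 0.53 for TRAV13N-1 and 0.32 ± 0.44 for TRAV13N-2. The edgeR adjusted p was 0.838 to 0.946. In LN it was -0.38 ± 0.36, -0.59 ± 0.59, 0.52 ± 0.43, 0.08 ± 0.65, -0.29 ± 0.53 and -0.09 ± 0.44 in the same order, with an edgeR adjusted p of 0.575 to 0.930. With DESeq2 the LN value of TRAV13N-2 was above 0 (0.0300).

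With the near-identical copies counted as 1 segment, the fold change between genotypes was 0.17 ± 0.40 in thymus and 0.13 ± 0.41 in LN for TRAV13D-2 and TRAV13N-2, and 0.03 ± 0.37 and 0.41 ± 0.37 for TRAV13D-1 and TRAV13N-1.

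Between tissues the members ran from -0.77 (TRAV13D-2) to 0.60 (TRAV13N-1) in Themis+/+ and from -0.83 (TRAV13D-2) to 0.63 (TRAV13D-1) in Themis-/-, on the log2 scale of LN over thymus. Both low ends were of the TRAV13D-2 label, and TRAV13D-2 and TRAV13N-2 together were at -0.04 ± 0.41 in Themis+/+ and -0.08 ± 0.40 in Themis-/-. TRAV13D-1 and TRAV13N-1 together were at 0.06 ± 0.37 and 0.44 ± 0.37. The genotype effect in LN minus that in thymus ran from -0.84 (TRAV13N-1) to 0.63 (TRAV13D-1), labels that together gave 0.38 ± 0.52. The median fold change of the members was 0.01 in thymus and -0.19 in LN, beside 0.08 and -0.09 for all 114 segments. Another scaling (median-of-ratios size factors) moved the median of all segments by 0.11 in LN and by 0.18 in the difference of effects. In simulated data for the LN comparison, this test found 1 of 20 segments changed by 1 on the log2 scale, 8 of 19 changed by 2 and 13 of 20 changed by 3, so it found few changes of the sizes seen here. Counted by clones, 0 members passed either, and TRAV13-1 in LN was at -0.51 ± 0.23 (log2 fold change, edgeR adjusted p = 0.167). By clones the test called 2.78% of 108 segments in thymus and 8.33% in LN (2.78% higher and 5.56% lower in Themis-/-). It called 0% between tissues in Themis+/+, 4.63% in Themis-/- (3.7% higher and 0.926% lower in LN) and 0.926% for the difference of effects, all of these higher. The 6 other TRAV13 segments that passed the filter had 0 calls in the same 5 comparisons. Across the 8 libraries the summed members followed TRAV4-2 (Pearson r = 0.786 of log2 CPM), TRAV12D-1 (0.753) and TRAV6-6 (0.753) most closely, values that share each library's depth and total.

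J partners differed between the copies near the J segments and those far from them. The J-proximal copies were joined to J segments with high numbers and the D and N copies to lower ones, in every library. By the mean J number of their clones, averaged over the 8 libraries, the order was TRAV13D-2 (22.2 ± 2.24), TRAV13N-2 (22.6 ± 2.60), TRAV13N-1 (25.5 ± 4.37), TRAV13D-1 (28.1 ± 3.67), TRAV13-1 (33.6 ± 0.771) and TRAV13-2 (35.97 ± 3.85; SD, n = 8). Of neighbours in this order, TRAV13D-2 and TRAV13N-2 did not differ beyond their spread (exact sign-flip permutation test over libraries, adjusted p = 0.664), nor did TRAV13-1 and TRAV13-2 (0.156). The other 3 neighbouring pairs each had an adjusted p of 0.0391. Among the D and N copies the order did not follow the locus, since TRAV13D-1, the farthest from the J segments, had the highest mean J number of the 4. TRAV13D-2 and TRAV13N-2 counted as 1 segment had 22.4 ± 2.12, and TRAV13D-1 and TRAV13N-1 together 27.1 ± 3.71, higher in 8 of 8 libraries (difference 4.62 ± 2.73, exact sign-flip permutation, adjusted p = 0.0117 over 3 neighbours). The D and N copies together had 25.0 ± 2.91 and the J-proximal copies 34.2 ± 1.27. The difference of -9.17 ± 3.24 (SD) was below 0 in 8 of 8 libraries (exact sign-flip permutation p = 0.0078, the smallest that 8 libraries allow) and was -8.98 with CDR3 ends merged. J numbers of 40 or above were joined to 32.3% ± 4.41 of TRAV13-1 clones and 37.4% ± 16.7 of TRAV13-2 clones, but to 6.16% ± 3.47 of the clones of TRAV13D-2 and TRAV13N-2 together, and to 21.3% ± 9.85 of those of TRAV13D-1 and TRAV13N-1 together.

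**Figure D4:**
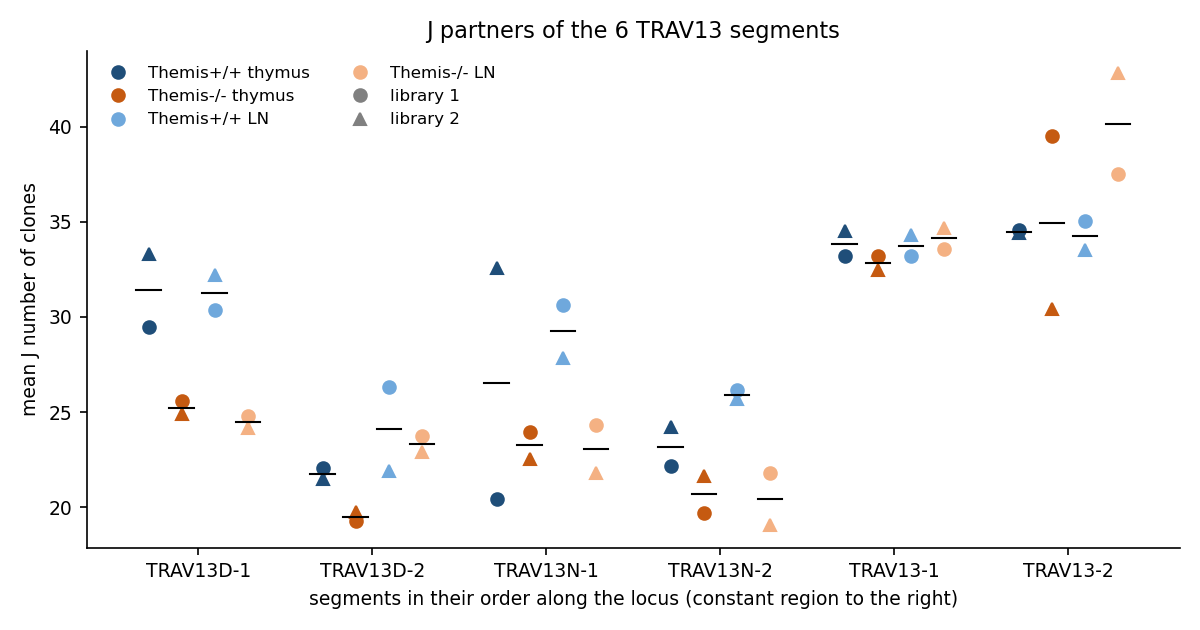
Mean J number of the clones (y axis; a low number is a J nearer the constant region) for each member (x axis, in locus order with the constant region to the right) in the 8 libraries, coloured by group, with a line at the mean of 2 libraries. TRAV13D-1 lies at 24.2 to 25.6 in the 4 Themis-/- libraries and at 29.5 to 33.3 in the 4 Themis+/+ libraries, while TRAV13-1 lies at 32.5 to 34.7 in both genotypes.

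The mean J number of the D and N copies was lower in every Themis-/- library than in any Themis+/+ library, with the smallest p that the test allows, which is above 0.05. It was 24.0 and 28.6 in Themis+/+ thymus, 22.4 and 22.1 in Themis-/- thymus, 28.8 and 27.8 in Themis+/+ LN, and 23.9 and 22.4 in Themis-/- LN. The groups of 4 did not overlap, but the highest Themis-/- value (23.9, LN) and the lowest Themis+/+ value (24.0, thymus) were close. The means were 22.7 ± 0.829 and 27.3 ± 2.24 (SD, n = 4 each), a difference of -4.60 (exact permutation test within tissue, two-sided p = 0.0556, the smallest it allows). The J-proximal copies had 34.4 ± 1.85 in Themis-/- and 33.9 ± 0.448 in Themis+/+ (exact permutation p = 0.667). Among members, TRAV13D-1 (24.9 against 31.3) and TRAV13N-2 (20.6 against 24.6) had no overlap between the 4 and 4 libraries, and 5 of 6 had a lower mean in Themis-/-. TRAV13D-1 and TRAV13N-1 together did not overlap either (24.2 ± 0.676 against 29.9 ± 3.07), but TRAV13D-2 and TRAV13N-2 together did (21.1 ± 1.46 against 23.8 ± 1.79; exact permutation p = 0.0556 for both).

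Most other TRAV segments also had lower means. Of 74 other TRAV segments with a mean of at least 30 clones per library, 67 had a lower mean J number in Themis-/- libraries, and 16.2% were lower with no overlap, beside 2 of the 6 members. The median difference was -2.76 for the members and -2.60 for the 74 others. Over all other TRAV clones the D and N copies were lower in Themis-/- by 3.74 and segments without D or N by 3.34 (exact permutation p = 0.0556 for both). In both sets the 4 and 4 libraries did not overlap either. The gap between D and N copies and the rest was -7.29 in Themis-/- and -6.89 in Themis+/+ for other TRAV clones (exact permutation p = 0.556). For members the gap was -11.7 ± 1.85 in Themis-/- and -6.63 ± 2.00 in Themis+/+. These gaps differed by -5.07, with no overlap between 4 and 4 libraries (exact permutation p = 0.0556). Weighted by reads the difference of gaps was -3.14 (p = 0.111), and with CDR3 ends merged it was -4.72 (p = 0.111), by the same exact test.

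The values differed at both ends of the J region. J numbers of 40 or above were joined to 8.87% ± 1.63 of D and N copy clones in Themis-/- and to 20.5% ± 4.57 in Themis+/+, without overlap of the 4 and 4 libraries. J numbers of 20 or below were joined to 41.0% ± 2.87 and 27.7% ± 6.45, and here the groups overlapped. Both differences had an exact permutation p of 0.0556 (SD, n = 4 each). Neither share is given for other TRAV clones. Their D and N copies also had a lower mean J number in Themis-/-, without overlap (23.9 against 27.6). Between tissues the mean J number of the D and N copies was 25.8 ± 3.06 in LN and 24.3 ± 2.99 in thymus (exact permutation p = 0.222).

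TRAJ22, TRAJ26, TRAJ49, TRAJ30 and TRAJ33 were the J segments most often joined to members. They took 7.79% ± 1.48, 6.37% ± 1.38, 6.21% ± 2.84, 5.09% ± 1.14 and 4.89% ± 2.07 of member clones (SD, n = 8). TRAJ49 varied most of these, from 1.30% in a Themis-/- thymus library to 10.9% in a Themis+/+ LN library. TRAJ22 was higher in members than in other TRAV clones (5.39%) in 8 of 8 libraries, and so was TRAJ26 (4.09% in others). None of the 43 J segments passed an adjusted p of 0.05 in this comparison (exact sign-flip permutation test over 8 libraries), with a smallest adjusted p of 0.0747, a background of 0%. This test allows no p below 0.0078, so after adjustment over 43 segments a J segment cannot pass alone. With CDR3 ends merged 7 of 43 passed (16.3%), each with an adjusted exact p of 0.0480. Each of these 7 was at the smallest p, so both counts depend on how many segments reached it. TRAJ26 (7.53% against 4.79%) and TRAJ27 (4.37% against 2.78%) were then higher in members, and TRAJ12, TRAJ40, TRAJ7, TRAJ43 and TRAJ5 lower.

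Of 32 J segments tested within member clones, 1 differed between genotypes, and it was in LN. TRAJ16 had 16 of 289 and 9 of 321 member clones in Themis-/- LN, against 1 of 783 and 0 of 393 in Themis+/+ LN. The fitted log2 fold change was 5.50 ± 1.31 (edgeR adjusted p = 0.00163), 1 call of 32 or 3.12%. Since it rests on 1 clone in Themis+/+, the ratio of shares is given with its counting interval, 48.2 (exact 95% interval 7.89 to 1979). This interval pools the clones of both LN libraries of a genotype and takes each clone as independent. The clones were not independent, since 13 of the 16 and all 9 differed from each other, within their library, only in the last 9 bases. The interval therefore does not bound the difference between genotypes. In thymus TRAJ16 had 9 and 14 member clones in Themis+/+ and 5 and 25 in Themis-/-. Other TRAV clones used TRAJ16 at 1.32% to 2.64% in all 8 libraries. No J segment passed in thymus, between tissues or for the difference of effects (0% of 32 each). At an unadjusted p under 0.05 there were 1, 1, 0 and 1 in thymus, between tissues in Themis+/+, between tissues in Themis-/- and for the difference, and DESeq2 called 0 in each.

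The TRAJ16 clones of Themis-/- LN were nearly all variants of 2 CDR3s. In the first library 13 of the 16 clones, with 234 reads, and in the second all 9, with 150 reads, differed from each other only within the last 9 bases. The 4 largest of the first set, with 79, 39, 37 and 21 reads, and the largest of the second set, with 37 reads, are shown for this. Capitals mark bases unlike the germline TRAJ16 within the last 9.
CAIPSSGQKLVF, 79 reads: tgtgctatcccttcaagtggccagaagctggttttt
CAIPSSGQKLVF, 39 reads: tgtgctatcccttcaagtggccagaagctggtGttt
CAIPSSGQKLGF, 37 reads: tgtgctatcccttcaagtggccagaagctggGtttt
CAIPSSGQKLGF, 21 reads: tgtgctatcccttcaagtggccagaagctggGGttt
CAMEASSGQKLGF, 37 reads: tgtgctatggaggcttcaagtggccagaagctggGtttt
With CDR3 ends merged, TRAJ16 had 3 and 1 clones in Themis-/- LN and 1 and 0 in Themis+/+ LN, and it fell below the filter, so that no test was made. TRAJ9 was then the 1 of 24 J segments called (4.17%), with a log2 fold change of 1.71 ± 0.54 (edgeR adjusted p = 0.0495). It had 11 of 137 and 9 of 171 merged clones in Themis-/- LN against 7 of 447 and 7 of 201 in Themis+/+ LN. Unmerged, TRAJ9 was at 1.48 ± 0.59 (edgeR adjusted p = 0.211). In thymus, with CDR3 ends merged, TRAJ9 was at 0.88 ± 0.39 (edgeR adjusted p = 0.309). Its use by genotype in other TRAV clones is not given. The call of TRAJ16 was also lost with reads in place of clones (edgeR adjusted p = 0.0581) and without either Themis+/+ LN library (0.626 and 0.554) or the first Themis-/- LN library (0.0864).

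Member CDR3s were shorter than those of other TRAV clones and carried an acidic residue more often. Their mean length was 39.4 ± 0.337 bases against 40.6 ± 0.136, and the difference of -1.23 ± 0.252 (SD, n = 8) was below 0 in 8 of 8 libraries (exact sign-flip permutation test, adjusted p = 0.0130 over 5 measures). The germline V end has 13 bases in each member and on average 13.8 ± 0.0343 in other TRAV clones, and 10.3 ± 0.192 against 11.6 ± 0.06996 of these V bases were kept. Part of the length difference is thus in the segment itself, which the choice of members fixed. Of member clones, 29.2% ± 5.10 had 39 bases and 30.01% ± 4.44 had 42. Glutamate or aspartate at residue 4, counted from the first cysteine, was found in 57.3% ± 3.76 of member clones and 8.63% ± 0.447 of other TRAV clones, again as the germline end gives it. TRAV13-1, TRAV13D-1 and TRAV13N-1 clones had glutamate there in 41.3%, 42.3% and 43.1%, and TRAV13-2, TRAV13D-2 and TRAV13N-2 clones had aspartate in 40.5%, 42.6% and 54.4%, with 48.2% ± 7.01 for the last pair together.

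Net charge per CDR3 was 0.117 ± 0.1202 in members and 0.440 ± 0.0583 in other TRAV clones (difference -0.323 ± 0.0931, lower in 8 of 8 libraries, exact adjusted p = 0.0130). The sign turned when the first 4 residues were left out. The rest of the CDR3 had a charge of 0.653 ± 0.0895 in members and 0.358 ± 0.0539 in others, higher in 8 of 8 libraries (exact sign-flip permutation p = 0.0078). Mean Kyte-Doolittle hydropathicity per residue was 0.162 ± 0.0304 in members and 0.184 ± 0.0223 in others (exact adjusted p = 0.0130, lower in 8 of 8), but it did not pass when weighted by reads or with CDR3 ends merged, and after residue 4 the values were -0.333 and -0.327 (exact p = 0.570). Bases that match neither the germline V nor the germline J numbered 2.83 ± 0.204 per member clone and 2.795 ± 0.118 per other clone (exact adjusted p = 0.555). Among members this number ran from 2.60 ± 0.306 in TRAV13N-1 to 3.04 ± 0.435 in TRAV13D-1, near-identical copies that together had 2.87 ± 0.332. With such copies counted as 1 segment it ran from 2.73 ± 0.186 in TRAV13-1 to 2.98 ± 0.386 in TRAV13-2. The mean J number of all members was 28.9 ± 2.24, and that of other TRAV clones 28.5 ± 2.70 (exact adjusted p = 0.449).

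The segments numbered 1 and those numbered 2 also differed from each other. CDR3s of those numbered 1 were longer by 0.666 ± 0.522 bases in 8 of 8 libraries (39.6 against 38.9, exact sign-flip permutation, adjusted p = 0.0156 over 6 measures). Their J numbers were higher by 4.05 ± 2.19 in 8 of 8 (30.4 against 26.3, exact adjusted p = 0.0156), in a set in which TRAV13-1 gave most clones. Their hydropathicity was lower by 0.0498 in 7 of 8 libraries (exact adjusted p = 0.0234). The germline end gives leucine or methionine before the acidic residue in those numbered 1 and isoleucine in those numbered 2. The choice of segments thus fixes part of the hydropathicity, and no value without these residues is given. Charge did not pass (0.0936 against 0.163, exact adjusted p = 0.141).

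By genotype, non-germline bases were fewer and net charge was higher in every Themis-/- library than in any Themis+/+ library, again with the smallest p the test allows, which does not pass 0.05. Non-germline bases were at 2.69 ± 0.102 in Themis-/- and 2.98 ± 0.175 in Themis+/+, and net charge at 0.209 ± 0.0523 and 0.0260 ± 0.0935 (SD, n = 4 each, exact permutation within tissue, p = 0.0556 for both and 0.0926 after adjustment over 5 measures). The highest Themis-/- count of non-germline bases (2.795) and the lowest Themis+/+ count (2.797) nearly met. The charges of the single libraries were 0.103 and 0.0832 in Themis+/+ thymus, 0.200 and 0.263 in Themis-/- thymus, 0.0217 and -0.104 in Themis+/+ LN, and 0.232 and 0.140 in Themis-/- LN. After residue 4 the charge was 0.726 ± 0.0267 in Themis-/- and 0.579 ± 0.0595 in Themis+/+ (exact permutation p = 0.0556), again without overlap. Other TRAV clones had 2.70 against 2.89 non-germline bases (exact permutation p = 0.0556). Their libraries did not overlap in this either (2.64 to 2.78 against 2.84 to 2.95). Their charge was 0.479 against 0.402, with overlap (exact permutation p = 0.111). No charge after residue 4 is given for them by genotype. The difference between members and other TRAV clones did not pass between genotypes for either measure (exact permutation p = 0.111 for both). CDR3 length was 39.2 ± 0.365 in Themis-/- and 39.5 ± 0.239 in Themis+/+ (exact permutation p = 0.167). Hydropathicity was 0.183 ± 0.0162 and 0.141 ± 0.0269 (exact permutation p = 0.111).

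Between tissues, member clones had 2.74 ± 0.166 non-germline bases in LN and 2.93 ± 0.215 in thymus, and 16.6% ± 1.49 and 13.3% ± 2.54 had none (SD, n = 4 each, exact permutation p = 0.0556 for both). Other TRAV clones had 2.78 and 2.81 non-germline bases (exact permutation p = 0.556). Length was 39.6 ± 0.329 in LN and 39.2 ± 0.280 in thymus, and charge 0.0724 ± 0.146 and 0.162 ± 0.0841, neither of which passed (exact permutation p = 0.167 and 0.111).

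The share of the 10 largest member clones was highest in Themis-/- LN, which had the fewest member clones. Neither genotype nor tissue passed the test. The 10 largest member clones held 8.88% and 13.7% of member reads in Themis+/+ thymus, 11.2% and 11.1% in Themis-/- thymus, 10.5% and 21.4% in Themis+/+ LN, and 25.8% and 28.0% in Themis-/- LN. Both Themis-/- LN values thus lay above all others, and they did so with member reads thinned to 3938 per library and with CDR3 ends merged (40.6% and 37.3%). Member clones numbered 289 and 321 in these libraries, against 393 to 920 in the others. The share of a fixed 10 clones depends on the number of clones, which thinning of reads does not make equal. No such share is given for other TRAV clones. Over both tissues the share was 19.03% ± 9.13 in Themis-/- and 13.6% ± 5.54 in Themis+/+ (exact permutation p = 0.222), and over both genotypes 21.4% ± 7.78 in LN and 11.2% ± 1.96 in thymus (p = 0.111, the same test; SD, n = 4 each). Reads per member clone were 12.03 ± 2.79 in Themis-/- and 9.22 ± 1.42 in Themis+/+ (exact permutation p = 0.111), and 11.9 ± 2.74 in LN and 9.36 ± 1.82 in thymus (p = 0.167, the same test). Other TRAV clones had 15.3 and 15.02 reads per clone in Themis-/- LN and 7.52 to 11.95 in the other libraries, so members and other clones were both at their highest there. Against other TRAV clones, members had 0.606 ± 0.579 fewer reads per clone (10.6 against 11.2, lower in 7 of 8 libraries, exact sign-flip permutation p = 0.0234).

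**Figure D5:**
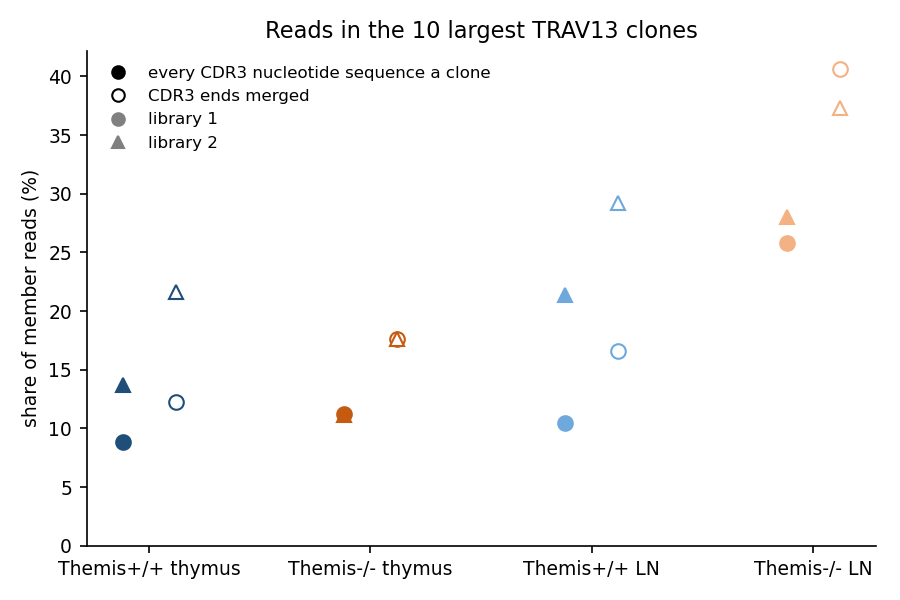
Share of member reads (y axis, %) in the 10 largest member clones of each library, by group (x axis), with circles for library 1 and triangles for library 2. Filled points count every CDR3 nucleotide sequence as a clone and open points merge CDR3 ends. The Themis-/- LN libraries, at 25.8% and 28.0% (filled), lie above the other 6 and have the fewest member clones.

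Single clones took up to 24.5% of a member's reads in a library. This value was from a TRAV13-2 clone, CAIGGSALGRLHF, with 68 reads in the first Themis-/- LN library. The largest clone by reads was TRAV13-1 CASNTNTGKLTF joined to TRAJ27, with 256 reads (15.7% of TRAV13-1 reads) in the second Themis-/- LN library. TRAV13N-2 had its largest clone, joined to TRAJ39, at 189 reads in the first Themis-/- LN library (22.2% of its reads). In Themis+/+ LN the largest was TRAV13-1 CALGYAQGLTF with 134 reads. In thymus it was TRAV13-1 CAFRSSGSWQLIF with 144 reads in Themis+/+, and TRAV13-1 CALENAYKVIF with 129 reads in Themis-/-.

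Of 4413 distinct nucleotide sequences of member CDR3s 248 (5.62%) were in 2 or more libraries, and of 3575 amino acid sequences 381 (10.7%). For other TRAV clones it was 8.41% of 65191 nucleotide and 18.3% of 44200 amino acid sequences, a difference that was not tested. With CDR3 ends merged it was 190 of 2372 (8.01%). No member CDR3 was in more than 6 of the 8 libraries. Of other TRAV clones, 46 of 44200 amino acid CDR3s were in all 8. That set is much larger than the 3575 of members and comes from more V segments, so the 2 counts do not compare directly. Shared member clones had 1.30 non-germline bases and the others 3.05. The difference of -1.75 ± 0.386 (SD) was below 0 in 8 of 8 libraries (exact sign-flip permutation p = 0.0078). A shared sequence counts in each library that holds it, so the 8 differences are not independent, as this test takes them to be. No such value is given for other TRAV clones. Of shared clones 47.4% had no non-germline base, against 10.04% of the others.

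The CDR3s found in the most libraries were 2 in 6 libraries and 8 in 5. The 3 below are shown as widely shared chains, with 1 nucleotide sequence each. Capitals mark bases that match neither the germline V nor the germline J.
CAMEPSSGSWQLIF: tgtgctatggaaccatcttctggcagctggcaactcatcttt
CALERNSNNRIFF: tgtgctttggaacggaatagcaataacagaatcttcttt
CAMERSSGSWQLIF: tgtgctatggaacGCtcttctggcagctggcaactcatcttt
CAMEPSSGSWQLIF (TRAV13D-1 or TRAV13N-1 with TRAJ22) was in 6 libraries with 265 reads and 4 nucleotide sequences. It had 38 and 0 reads in Themis+/+ thymus, 45 and 0 in Themis-/- thymus, 3 and 37 in Themis+/+ LN, and 126 and 16 in Themis-/- LN, and so was found in both tissues and genotypes. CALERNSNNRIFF (TRAV13-1 with TRAJ31) was also in 6 libraries, with 56 reads, and was absent from the tables of both Themis-/- thymus libraries. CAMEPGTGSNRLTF (TRAV13N-1 with TRAJ28) had 330 reads, of which 201 and 104 were in the Themis-/- LN libraries. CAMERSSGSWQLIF had 188 reads and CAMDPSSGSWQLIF had 142, both with TRAJ22. Of the 10 CDR3s in 5 or more libraries, 4 used TRAJ22, but 1 of them, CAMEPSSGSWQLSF, differs from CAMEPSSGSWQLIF only near the 3′ end, where mismatches were frequent. With CDR3 ends merged, 1 CDR3 was in 6 libraries.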

How the data were processed

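TCRα transcripts of sorted CD8 T cells were copied with a template-switching adapter at the 5′ end. They were amplified in 2 rounds of PCR for MiSeq sequencing, with a constant-region primer in the first and index primers in the second. The sources name no molecular identifiers. The authors assigned V and J segments with MiXCR and deposited a read count per CDR3 nucleotide sequence, without normalization, and each sequence's fraction of its library's reads, also by the authors, which equals count over total. The submitters' notes name CASAVA 1.4 and build mm9, and no MiXCR version is stated. Coordinates above are GENCODE's for GRCm38, matched by name and not converted. Clone numbers missing from the tables (13.9% to 16.9% per library) have no stated reason. V and J are the first hits. Sorted Vα3.2+ libraries were used only for the reads named below.

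Reads per V segment and member clones per J segment were tested over the 8 libraries with edgeR 4.0.16 (quasi-likelihood test, TMM, at least 10 counts in at least 2 libraries, Benjamini-Hochberg adjustment, threshold 0.05). DESeq2 1.42.0 was run as a second tool. The test was checked on simulated data. Single values per library were compared by exact two-sided permutation tests, within strata (36 arrangements) or by sign flips (256). Conditions come from the labels, which call the sorted cells by differing Vα names. Design text speaks of individual mice and the methods of pooled LNs. Library numbers were not a pairing. Named were all 6 members, the 3 V segments most correlated with their sum, the 5 J segments most used, up to 3 J segments per direction and comparison with an adjusted p under 0.05, and, chosen after seeing values, TRAJ9, TRAJ27 and the other J segments called with CDR3 ends merged, the CDR3s and their largest clones. Members and lists were chosen with earlier results of these data known. Merging of CDR3 ends, of D and N copies, the gap in J number by genotype and the background over 74 other segments, the values of the D and N copies counted as 1 segment were added after seeing the data. Alternatives were other scalings and filters, clones for reads, split ties, no single-read clones, weights by reads, thinned reads, and each library left out.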

Additional observations from a re-analysis of the deposited data

Results flagged for a closer look

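Reads of the 6 TRAV13 segments also appeared in libraries of cells sorted for Vα3.2, a chain that these segments do not encode, which are outside the comparisons above. Above the limit of 3 counts that a count of 0 allows, there were 4 reads in the first Themis-/- LN library, 9 reads in the first Themis+/+ LN library and 4 reads in the second Themis+/+ thymus library. In all, 20 such reads were seen in 4 of the 8 sorted libraries, out of 155773.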

How the results depend on the processing

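Of 47 results with 744 alternative values, 700 kept direction and side of the threshold, 28 reversed, 7 lost the call and 9 counts moved. The 0 calls of members in read use held under every alternative. The J segments called in LN were 0 with reads in place of clones and 0 with the replicate block. Leaving out 1 library gave 0 to 1 calls in LN, in thymus and between tissues in Themis+/+, where TRAJ49 (log2 fold change -2.48, edgeR adjusted p = 0.0152) was called in thymus without Themis-/- thymus library 1, and TRAJ16 between tissues (-4.63 and -4.10) without library 1 of Themis+/+ or of Themis-/- thymus. TRAJ16 was also called for the difference of the genotype effects without Themis-/- thymus library 2 (6.68) or Themis+/+ thymus library 1 (5.62). Its LN value ran from 4.83 to 7.65. Library numbers did not pair the samples (correlation of deviations -0.251 to 0.0627 over 114 segments), and with the replicate block TRAJ16 in LN was at 5.51 (edgeR adjusted p = 0.0783). The block changed no other call. The cause was not tested for any of these.

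In thymus, TRAV13D-1 was at 0.0545 by clones with CDR3 ends merged, and leaving out a library gave -0.63 to 0.13 for TRAV13-1, -0.42 to 0.14 for TRAV13D-1 and -0.26 to 0.60 for TRAV13D-2. In LN, TRAV13N-1 was at 0.13 by clones and 0.0536 with ends merged (-0.86 to 0.34 without 1 library), and TRAV13-2 ran from -1.04 to 0.12. TRAV13N-2 was at 0.0300 with DESeq2, 0.0293 with median-of-ratios size factors, 0.0708 with no filter, 0.0521 by clones, 0.11 with ties split, 0.0433 with ends merged and 0.0127 in the 4 LN libraries alone (-0.30 to 0.55 without 1 library). Weighted by reads, members minus other TRAV clones was -0.0756 for non-germline bases (-0.00234 to 0.0539 without 1 library), -0.446 for J number and -0.0141 for hydropathicity, which was -0.0108 with ends merged, and hydropathicity by genotype was -0.0128. The summed share by genotype was 0.0391 as a log2 centred ratio and 0.135 points by clones with ends merged. With 2 libraries per group the permutation test between genotypes or tissues cannot go below 0.0556, and the counts of clones depend on whether CDR3 ends are merged.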
